A study of Homo sapiens with 208 samples.

Results

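The late gefitinib response of PC9M2 cells was set against that of PC9 cells over the time labels from 14 to 24 h. At each of these 11 time points the gefitinib effect of a line was its log2 signal with gefitinib minus that without treatment, and the effect in PC9 was subtracted from the effect in PC9M2. The 11 differences of effects used 44 of the 208 arrays of the series, 11 in each of 4 arms, and none of the 4 arms received EGF. A positive difference means that gefitinib left a gene relatively higher in PC9M2 than in PC9, and a negative difference that it left the gene relatively lower.

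PC9 cells come from a human adenocarcinoma of the lung and carry a deletion in the EGFR kinase domain that keeps the kinase active, and gefitinib, an EGFR kinase inhibitor, inhibits their growth. PC9M2, labelled PC9GRM2 in the sample descriptions, is 1 clone selected from PC9 cells that survived long exposure to gefitinib, and per the study's methods it carries neither the T790M mutation nor MET amplification. All cells were starved for 48 h before the course, and the treated arms received 0.5 µM gefitinib before time 0 while the untreated arms received none. Each course had 26 time points with 1 array per time point, so the time points stand in for replicates. The labels do not say that the time points came from separate cultures, and the p-values measure only the spread between hours, which may be technical.

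EGFR drives the RAS, RAF, MEK and ERK kinase cascade and the PI3K and AKT pathway. Active ERK induces transcription factors of the EGR, FOS and ETV families, and also its own inhibitors, such as the dual-specificity phosphatases and the Sprouty and SPRED proteins, whose transcripts therefore fall when the cascade is blocked. Downstream, growth factor signalling lets cells pass from G1 into S phase, through cyclin D, CDK activity and release of E2F factors that transcribe the DNA replication genes.

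The spread between hours was larger in PC9, where the median gene's effect had an SE of 0.137, against 0.069 in PC9M2. Between 26384 and 35414 features were well above background on the late PC9 arrays and between 27065 and 32950 on the late PC9M2 arrays, whereas 183 to 1028 features were saturated on the PC9 arrays and 0 on the PC9M2 arrays. No slide and no scan day held both lines, so that line and scanning period cannot be told apart. In each line the late arrays were scanned on 4 days, in the blocks 14 to 15, 16 to 18, 19 to 21 and 22 to 24 h. The hours from 16 to 18 h stood apart. The median gene had an absolute difference of effects of 0.773, 0.645 and 0.811 on the log2 scale, against 0.354 to 0.455 at the other 8 time points, and across genes the differences at 16 and 17 h had r = 0 with those at 18 h. The gefitinib effects behind them had median absolute values of 0.964, 0.794 and 0.849 in PC9, against 0.62 to 0.763 at its other hours, and of 0.435, 0.423 and 0.474 in PC9M2, within the 0.405 to 0.527 of its other hours. Of 8 epithelial markers 7 were well above background on most arrays of each arm. Of 8 leukocyte markers 5 were well above background on most arrays of each PC9 arm, and 6 on most arrays of each PC9M2 arm. PTPRC and CD3E were too dim to be tested. The summed signal of the 8 was 1484 to 2497 in untreated PC9, 1119 to 15954 with gefitinib, 795 to 1046 in untreated PC9M2 and 1659 to 2861 with gefitinib. CSF1R (median log2 intensity 13.44 with gefitinib in PC9) set the highest values. Sums left out values removed as outliers. The CSF1R effect in PC9 had no value at 15 h, so the lowest gefitinib sum in PC9 may lack CSF1R. On most arrays 1 of 6 fibroblast markers and 2 of 6 endothelial markers were detected, the latter PECAM1 (difference of effects 1.62) and VWF (-0.65). The part of these markers in the results was not tested.

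Gefitinib changed most genes in both lines at the late hours, with the larger median effect in PC9. Of 12850 genes tested, 8864 (69.0%) passed the test in PC9 (33.3% rose and 35.7% fell) and 9834 (76.5%) in PC9M2 (36.3% rose and 40.2% fell), but the median absolute effect was 0.637 in PC9 and 0.433 in PC9M2, and 4174 genes (32.5%) in PC9 against 2265 (17.6%) in PC9M2 both passed and changed at least 2-fold. The difference of effects itself passed limma's test, after Benjamini-Hochberg adjustment, for 4674 genes (36.4%), 2333 higher (18.2%) and 2341 lower (18.2%). For 1274 genes (9.91%) it was at least 2-fold, and for 1965 genes it had the same sign at every one of the 11 hours. With only time points 2 h apart the count was 1441, with fewer time points tested, and without the hours from 16 to 18 h it was 5856.

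Most of these genes moved the same way in both lines, but further in PC9. Of the 4674 genes, 2951 (63.1%) changed in the same direction in both lines with the larger effect in PC9, and their median absolute effect was 1.544 in PC9 and 0.753 in PC9M2. By contrast, 263 genes (5.63%) changed in the same direction with the larger effect in PC9M2. A further 679 genes (14.5%) passed in PC9 and not in PC9M2, 455 (9.73%) in PC9M2 and not in PC9, and 31 (0.663%) in neither line alone. Opposite directions were called for 295 genes (6.31%). Across the 12850 genes the effects of both lines had a Pearson r of 0.851 and a Spearman rho of 0.853, where genes are not independent replicates.

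**Figure D1:**
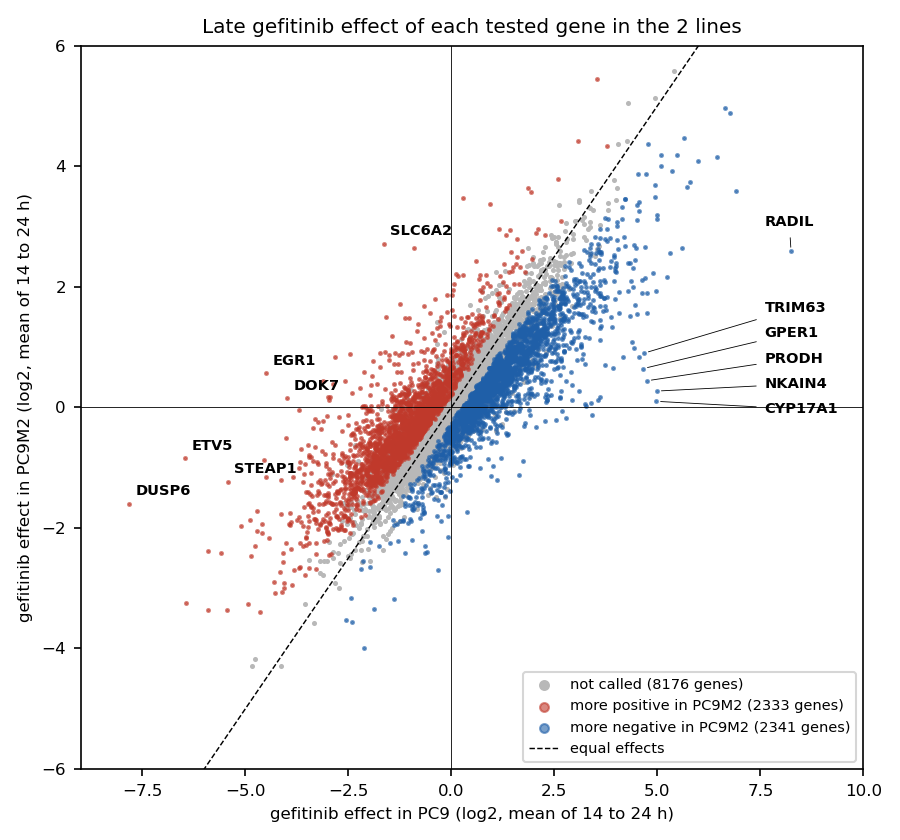
Mean late gefitinib effect (log2, mean of 11 time points) of each of the 12850 tested genes in PC9 (x axis) and PC9M2 (y axis), with genes called higher in red and lower in blue and a dashed line where both effects are equal. The called genes lie on both sides of the line, mostly nearer to 0 on the PC9M2 axis. The 12 labelled genes have the most positive and most negative differences among called genes with one sign at every late hour.

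The inhibitors that ERK induces against its own pathway fell in both lines, and fell less in PC9M2. Of 14 listed feedback inhibitors 13 were tested, 12 had a higher difference of effects (18.2% of all tested genes did) and 0 a lower one, and the median difference was 1.04 against 0.00 over all tested genes. SOCS3 was the member that did not pass, with a difference of 0.03. In PC9 all 13 fell (35.7% of all tested genes did), with a median effect of -2.50. In PC9M2 10 fell (40.2% of all tested genes did), with a median of -0.76. After normexp background correction the median difference of the list was 0.54 with 11 members higher, and with time points 2 h apart 8 members were higher.

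Falls to background, such as that of ETV5 in PC9, have only a lower limit and cannot be ranked. Each fold given as "at least" takes the lowest signal of any probe well above background on the array as the limit. Some probes with higher signals were not well above background, so these folds may be too large. Among genes with the same sign at every hour, DUSP6, the cytoplasmic phosphatase specific for ERK, had the largest positive fitted difference of effects. Its log2 intensity in PC9 was 12.90, 13.57 and 13.93 without treatment (lowest, median and highest of 11 arrays) and 5.00, 5.48 and 7.14 with gefitinib, where 9 of 11 arrays were well above background. In PC9M2 it was 13.26, 13.42 and 13.71 without treatment and 11.69, 11.87 and 12.15 with gefitinib. The arms did not overlap within either line, and every PC9M2 gefitinib array was above every PC9 gefitinib array. The effect was -7.81 (SE 0.19) in PC9 and -1.60 (SE 0.04) in PC9M2, and the difference of effects was 6.21 (SE 0.20, n = 11, limma adjusted p = 9.21e-10), or 3.69 after normexp background correction. DUSP4 and DUSP5, nuclear phosphatases of the same family, had differences of 2.67 and 0.87.

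The Sprouty and SPRED inhibitors, which act on RAS and RAF, also fell less in PC9M2. SPRY4 ranged from 9.28 to 9.92 without treatment and from 3.91 to 5.86 with gefitinib in PC9 (well above background on 8 of these 11 arrays), and from 9.66 to 10.08 and from 8.54 to 9.22 in PC9M2, again without overlap in either line. Its difference of effects was 3.67 (SE 0.14, limma adjusted p = 3.38e-09). SPRED2 had a difference of 3.00 (SE 0.25), with an effect of -3.24 in PC9 and -0.24 in PC9M2, although its 2 probes gave differences of 0.62 and 3.00. SPRED1 was not well above background on any PC9 gefitinib array, so its fall in PC9 was at least 8.53-fold, whereas in PC9M2 its effect was -0.35 and its difference of effects was 2.82 (SE 0.33, limma adjusted p = 2.94e-05).

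**Figure D2:**
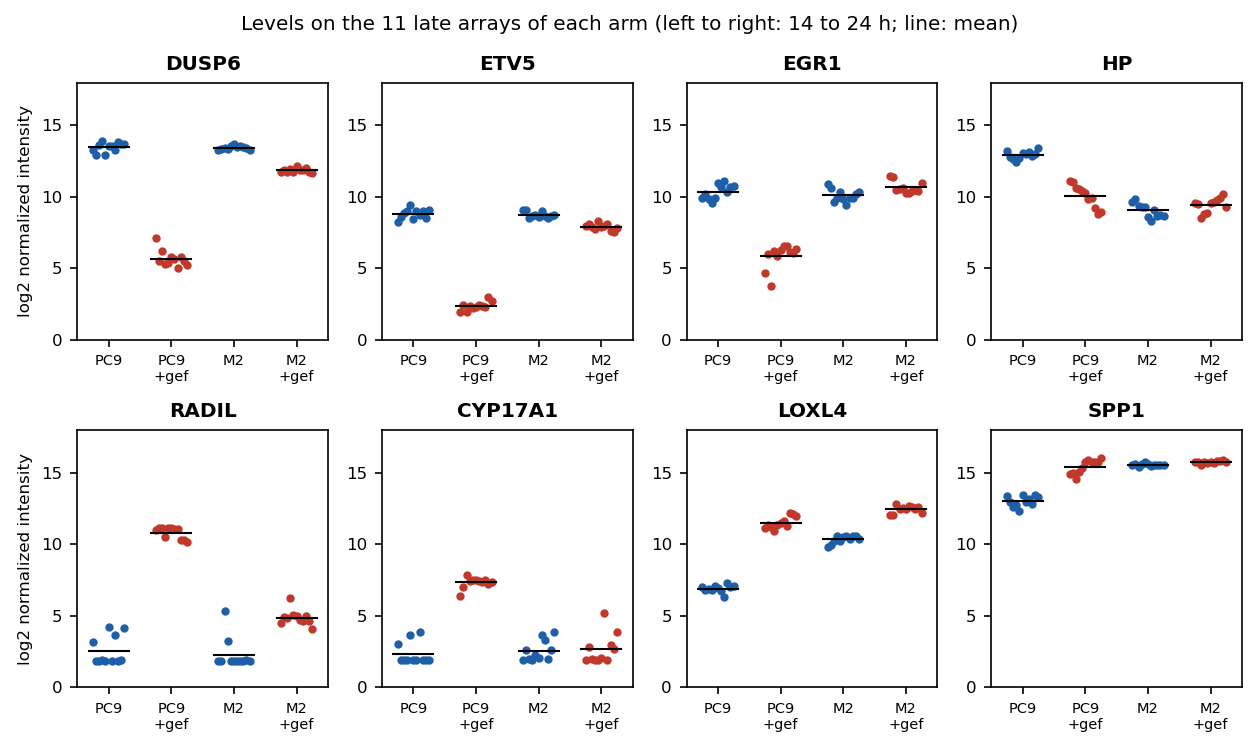
Log2 intensity of 8 genes on the 11 late arrays of each of the 4 arms (PC9 and PC9M2, untreated and gefitinib), with 1 point per time point and a line at the mean. DUSP6, ETV5 and EGR1 drop with gefitinib in PC9 far below their PC9M2 gefitinib arrays, while RADIL, CYP17A1, LOXL4 and SPP1 rise furthest in PC9.

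The transcription factors that ERK induces showed the same pattern with exceptions. Of 22 members, all tested, 13 had a higher difference of effects (18.2% of all tested genes did), ETS2 a lower one (-0.37), and 8 did not pass, with a median of 0.95. The median was 0.31 after normexp background correction, with 10 members higher, and 0.53 with a floor of 16 in place of 1, with 11 higher. The median effect was -1.80 in PC9 and -0.68 in PC9M2. The 8 members that did not pass included JUN, JUNB, FOSB and ATF3, members of the AP-1 and ATF families.

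ETV5, an ETS factor of the PEA3 group, read 8.25, 8.89 and 9.45 without treatment in PC9 and 1.92, 2.37 and 2.98 with gefitinib, where 0 of 11 arrays were well above background. In PC9M2 it read 8.53, 8.68 and 9.06 without treatment and 7.51, 7.92 and 8.29 with gefitinib. The arms of each line were separate, and with gefitinib ETV5 was well above background on 11 of 11 arrays in PC9M2. Its fall in PC9 was at least 85.4-fold if the lowest signal well above background is the limit. Its effect in PC9M2 was -0.85 (SE 0.07), and its fitted difference of effects was 5.62 (limma adjusted p = 9.21e-10), or 0.99 after normexp background correction. The related factor ETV4 fell by 3.48 in PC9 and by 0.63 in PC9M2, a difference of 2.84 (SE 0.18).

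EGR1, an early-response zinc finger factor, did not fall in PC9M2 at the late hours. It read 9.60, 10.33 and 11.08 without treatment and 3.75, 6.14 and 6.59 with gefitinib in PC9, against 9.42, 9.95 and 10.93 without treatment and 10.25, 10.51 and 11.46 with gefitinib in PC9M2. The PC9 arms were separate and the PC9M2 arms overlapped. The effect was -4.50 (SE 0.19) in PC9 and 0.57 (SE 0.06) in PC9M2, and the difference of effects was 5.06 (SE 0.22, limma adjusted p = 8.15e-09), or 2.83 after normexp background correction. EGR2 was below background on all 11 PC9 gefitinib arrays, a fall of at least 7.89-fold, and its effect of 0.17 in PC9M2 did not pass the test.

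The sequence before the EGR1 start is shown because EGR1 and EGR2 were the members of this list with a CArG box, the site bound by serum response factor together with the ERK-phosphorylated ETS cofactors. In the 250 bases upstream of any annotated start, on both strands, 2 of 14 of these factors with a promoter in the RefSeq table (14.3%) held one, against 394 of 27305 genes (1.44%). Other lists held the box too, in 2 of 9 Wnt feedback genes and β-catenin targets (22.2%), 3 of 24 other receptor kinases and ligands (12.5%) and 2 of 17 Wnt receptor genes (11.8%), and it is not particular to the ERK-induced factors. The EGR1 window is chr5:138465229-138465478 (GRCh38.p14, plus strand, 5′ to 3′), and the capitals mark its 2 CArG boxes, which end 95 and 73 bases before the start.
EGR1: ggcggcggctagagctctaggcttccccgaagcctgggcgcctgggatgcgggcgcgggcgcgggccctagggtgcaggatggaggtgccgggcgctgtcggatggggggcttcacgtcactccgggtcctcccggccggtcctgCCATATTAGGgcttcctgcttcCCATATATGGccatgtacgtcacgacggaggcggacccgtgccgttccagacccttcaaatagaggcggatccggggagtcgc

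Of the other genes that ERK activity induces, 14 fell in PC9 and 12 in PC9M2 (35.7% and 40.2% of all tested genes did). Of 17 members 16 were tested, 11 had a higher difference of effects (18.2% of all tested genes did) and 0 a lower one, with a median of 1.23. After normexp background correction the median was 0.59, with 10 members higher. PHLDA1, a pleckstrin homology protein induced by growth factors, fell by 4.71 in PC9 and by 1.72 in PC9M2, a difference of 3.00 (SE 0.29). CDC25A, the phosphatase that activates CDK2 at the G1 to S transition, had a difference of 2.12 (SE 0.27). EPHA2, a receptor kinase for ephrins, and PLAUR, the urokinase receptor, were well above background on all 44 arrays and had differences of 2.10 (SE 0.21) and 1.88 (SE 0.14).

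Outside these lists, the most positive differences came from genes of varied function. SLC6A2, the norepinephrine transporter, was the only one of the 6 most positive genes with a same-sign difference at every hour that was not well above background on any PC9 array of either arm. In PC9M2 it read 2.02, 2.77 and 3.95 without treatment, 0 of 11 arrays above background, and 4.74, 5.30 and 5.76 with gefitinib, 10 of 11 above background. The PC9M2 arms did not overlap, and its rise there was at least 6.41-fold. Its response in PC9 was not measured. STEAP1, a metalloreductase of the cell surface, ranged from 8.52 to 9.61 without treatment and from 2.07 to 4.98 with gefitinib in PC9, where only 1 of 11 gefitinib arrays was above background, and from 7.91 to 9.24 and from 6.53 to 8.16 in PC9M2. The arms were separate in PC9. Its fitted difference of effects was 4.19, which rests on those dim arrays and was 1.19 after normexp background correction. DOK7, an adaptor of the receptor kinase MuSK, ranged from 7.74 to 8.79 without treatment and from 2.00 to 5.28 with gefitinib in PC9, and from 9.49 to 10.36 and from 9.24 to 10.87 in PC9M2. Its PC9M2 arms overlapped, and its effect in PC9 ranged from -6.78 to -2.65 between hours. Its fitted difference of effects was 4.13 (SE 0.31), which rests on PC9 gefitinib readings about as low as those of STEAP1.

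Among the genes well above background on all 44 arrays, HP, SHC3, ITGA6, ESPNL, ETV4 and WFDC5 had the most positive differences. HP encodes haptoglobin, the plasma protein that binds free hemoglobin. It ranged from 12.46 to 13.40 without treatment and from 8.79 to 11.10 with gefitinib in PC9, and from 8.28 to 9.82 and from 8.54 to 10.19 in PC9M2. The PC9M2 arms overlapped and lay below all untreated PC9 arrays, and the difference of effects was 3.25 (SE 0.45, limma adjusted p = 0.00011). ITGA6, an integrin that binds laminin, fell without overlap in both lines, by 4.88 in PC9 and by 1.86 in PC9M2, a difference of 3.02 (SE 0.12). SHC3, an adaptor of phosphorylated receptors, and WFDC5, a secreted protein with protease inhibitor domains, had differences of 3.13 (SE 0.11) and 2.77 (SE 0.11).

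The most negative differences belonged to genes that gefitinib raised in PC9 from levels at or near background. RADIL, an effector of the adhesion GTPase RAP1, read 1.84, 1.87 and 4.22 without treatment in PC9, where 0 of 11 arrays were well above background, and 10.14, 11.06 and 11.14 with gefitinib. In PC9M2 it read 1.81, 1.85 and 5.30 without treatment (1 of 11 above background) and 4.07, 4.83 and 6.23 with gefitinib (10 of 11). The PC9 gefitinib arrays were above all others. With the lowest signal well above background as the limit, the rise in PC9 was at least 269-fold. The fitted effect in PC9M2 was 2.59 (SE 0.28). The fitted difference of effects was -5.66 (limma adjusted p = 8.18e-07), -5.49 with the bound in place of the PC9 effect and -3.11 after normexp background correction, and its size depends on untreated arms at or near background.

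CYP17A1, the steroid 17-hydroxylase, rose at least 28.5-fold in PC9 and did not pass the test in PC9M2, with an effect of 0.10 (SE 0.20) on arrays that were mostly at background. Its fitted difference of effects was -4.88 (SE 0.22), and its size rests on dim arrays. NKAIN4, a membrane protein that interacts with the sodium pump, rose at least 27.9-fold in PC9, and GPER1, a G protein-coupled receptor for estrogen, at least 24.8-fold. TRIM63, a ubiquitin ligase best known from muscle atrophy, rose at least 23.2-fold in PC9 and at least 1.68-fold in PC9M2. In PC9M2 NKAIN4 ranged from 3.47 to 7.14 without treatment and from 4.31 to 5.43 with gefitinib. GPER1 ranged there from 1.85 to 5.03 and from 2.67 to 4.65. The fitted differences of effects were -4.73 for NKAIN4, -4.02 for GPER1 and -3.79 for TRIM63, and their sizes rest on dim arrays. PRODH, the mitochondrial enzyme that begins proline breakdown, rose by 4.75 in PC9, while its effect of 0.44 in PC9M2 did not pass, and the difference was -4.31 (SE 0.42).

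Among genes measured on all 44 arrays, TEX19, HTRA3, LOXL4, CRYAB, TRIM29 and SPP1 had the most negative differences. LOXL4, a lysyl oxidase that crosslinks matrix proteins, ranged from 6.30 to 7.27 without treatment and from 10.96 to 12.18 with gefitinib in PC9, and from 9.81 to 10.61 and from 12.03 to 12.80 in PC9M2. The arms were separate in both lines, and untreated PC9M2 already lay above untreated PC9. The effect was 4.62 (SE 0.11) in PC9 and 2.11 (SE 0.06) in PC9M2, a difference of -2.51 (SE 0.15, limma adjusted p = 8.06e-08). HTRA3, a secreted serine protease, had a difference of -2.73 (SE 0.14), CRYAB, a small heat shock protein, of -2.35 (SE 0.19), and TRIM29 of -2.31 (SE 0.12).

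SPP1, the secreted phosphoprotein osteopontin, ranged from 12.34 to 13.45 without treatment and from 14.55 to 16.03 with gefitinib in PC9, and from 15.42 to 15.75 and from 15.57 to 15.87 in PC9M2. The PC9M2 arms overlapped near the top of the scale, and 6 of the 11 PC9 gefitinib arrays were saturated, so that their readings are lower limits. Its fitted difference of effects of -2.22 is limited by these readings. TEX19, a gene best known from germ cells, went in opposite directions, with an effect of 1.64 (SE 0.17) in PC9 and -1.13 (SE 0.16) in PC9M2, a difference of -2.77 (SE 0.10).

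**Figure D3:**
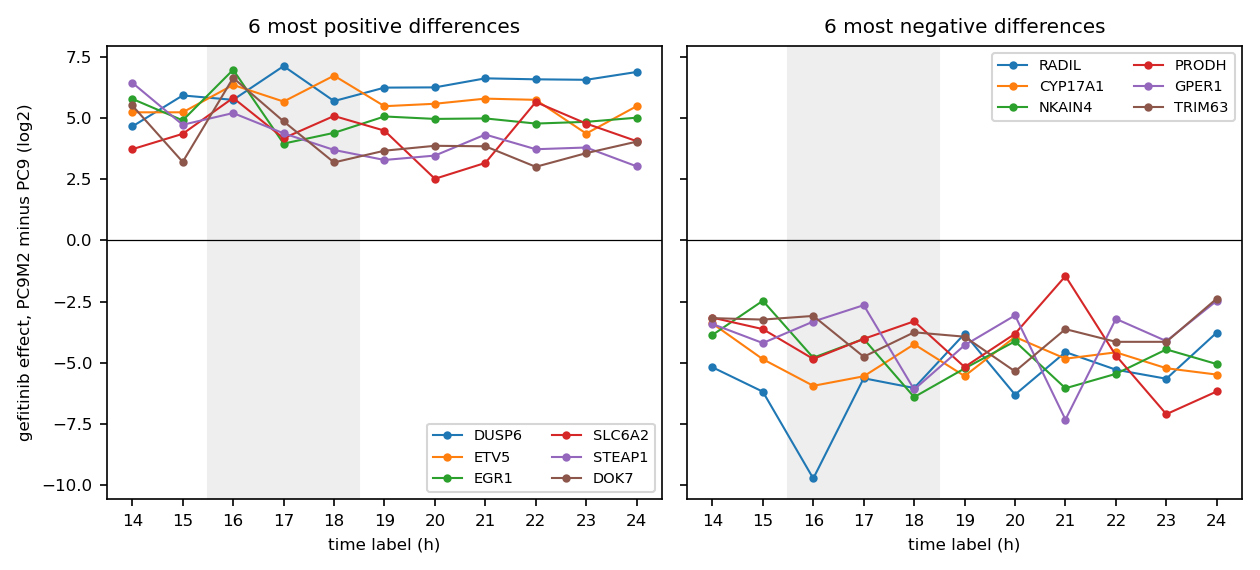
Difference of gefitinib effects (PC9M2 minus PC9, log2) at each time label from 14 to 24 h for the 6 genes with the most positive and the 6 with the most negative means, with a grey band over 16 to 18 h. These 12 genes were picked among called genes with one sign at all 11 hours, so their constant sign follows from the choice. RADIL ranges from -9.74 to -3.77.

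The 4 genes with the largest opposite fitted effects were SLC6A2, ACOX2, ESPNL and PRKCQ. ACOX2, ESPNL and PRKCQ fell in PC9 and rose in PC9M2, whereas SLC6A2 was not well above background in either PC9 arm. ESPNL, related to the actin-bundling protein espin, ranged from 8.60 to 9.32 without treatment and from 7.26 to 8.03 with gefitinib in PC9, and from 5.34 to 6.50 and from 7.43 to 8.05 in PC9M2. Gefitinib brought ESPNL to overlapping levels in both lines from opposite sides. Its effect was -1.24 (SE 0.10) in PC9 and 1.72 (SE 0.06) in PC9M2, a difference of 2.96 (SE 0.13). PRKCQ, protein kinase C theta, had effects of -1.45 (SE 0.12) and 1.18 (SE 0.13). ACOX2, a peroxisomal acyl-CoA oxidase, had effects of -1.59 (SE 0.17) and 1.50 (SE 0.24), with 4 of 11 PC9 gefitinib arrays above background.

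DNA replication genes fell in both lines and fell further in PC9. Of 37 members, all tested, 28 had a higher difference of effects (18.2% of all tested genes did), 1 a lower one and 8 did not pass. The median difference was 0.99 (0.65 after normexp background correction). In PC9 32 fell (35.7% of all tested genes did), with a median effect of -1.71. In PC9M2 31 fell (40.2% of all tested genes did), with a median of -0.64. The hourly median difference of the list was between 0.52 and 1.24 and above 0 at all 11 hours. Without the hours from 16 to 18 h 29 members were higher, and with time points 2 h apart 20 were.

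UHRF1, which keeps DNA methylation in place after replication, ranged from 9.73 to 11.19 without treatment and from 7.28 to 8.84 with gefitinib in PC9, and from 9.86 to 11.58 and from 9.95 to 11.08 in PC9M2. The arms were separate in PC9 and overlapped in PC9M2. The effect was -2.50 (SE 0.12) in PC9 and -0.30 (SE 0.11) in PC9M2, and the difference of effects was 2.20 (SE 0.09, limma adjusted p = 5.44e-09). GINS2, a subunit of the replicative helicase, ranged from 11.83 to 12.82 without treatment and from 8.94 to 9.89 with gefitinib in PC9, and from 12.12 to 12.60 and from 10.77 to 11.85 in PC9M2. These arms were separate in both lines, and the difference of effects was 2.07 (SE 0.11). MCM10, a replication initiation factor, and RRM2, a subunit of ribonucleotide reductase, had differences of 1.99 (SE 0.13) and 1.88 (SE 0.21). The helicase subunits MCM2, MCM3, MCM5, MCM6 and MCM7 had differences from 1.12 (MCM5) to 1.66 (MCM6), and the factor E2F1 of 1.69.

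Promoters of 2 of these genes are shown with their E2F-type sites. E2F factors transcribe replication genes, so this list, written from textbook knowledge, is no independent test of such sites. An E2F-type site, searched as TTCCCGC or TTGGCGC on both strands of the 250 bases before any annotated start, was in 18 of 31 replication genes with a promoter in the RefSeq table (58.1%), against 2568 of 27305 genes (9.4%) and 3 of 29 mitosis genes (10.3%). Other lists varied, with 4 of 11 fatty acid synthesis genes (36.4%), 7 of 24 glycolysis genes (29.2%), 4 of 18 sterol genes (22.2%) and 0 of 16 cytokines. The windows are chr19:4909251-4909500 (plus strand, 1 of 3 annotated starts) for UHRF1 and chr16:85688955-85689204 (minus strand) for GINS2, on GRCh38.p14, 5′ to 3′. Capitals mark the sites, which end 97 and 7 bases before the UHRF1 start and 24 bases before the GINS2 start. A match is a description of the letters, not a bound site, and MCM10 held none in its window.
UHRF1: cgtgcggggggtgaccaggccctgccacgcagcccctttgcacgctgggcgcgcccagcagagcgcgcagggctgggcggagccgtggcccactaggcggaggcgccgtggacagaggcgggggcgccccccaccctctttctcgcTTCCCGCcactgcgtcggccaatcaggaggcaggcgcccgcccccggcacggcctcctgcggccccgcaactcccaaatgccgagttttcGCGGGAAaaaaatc
GINS2: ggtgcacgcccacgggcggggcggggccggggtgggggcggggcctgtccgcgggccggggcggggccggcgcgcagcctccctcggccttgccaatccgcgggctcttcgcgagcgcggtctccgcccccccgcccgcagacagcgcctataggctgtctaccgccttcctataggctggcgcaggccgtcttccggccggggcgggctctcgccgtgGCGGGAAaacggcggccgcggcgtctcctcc

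Mitosis genes did not share this pattern. Of 35 members 34 were tested, and MAD2L1 had a higher difference of effects (0.53). A lower one was called for 6 (18.2% of all tested genes had one), and 27 did not pass, with a median of -0.19. The median effect was -0.33 in PC9 and -0.54 in PC9M2. ESPL1, BIRC5 and PLK1, which encode separase, survivin and polo-like kinase, rose in both lines and rose less in PC9M2, with differences of -0.79 (SE 0.18), -0.68 (SE 0.16) and -0.56 (SE 0.15). The other probe of ESPL1 gave 0.09. DLGAP5, a spindle protein, did not pass in PC9 (0.05) and fell by 0.51 in PC9M2. With time points 2 h apart 0 mitosis genes passed.

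Cyclin D and the CDK inhibitors lie between the ERK targets and the replication genes. Of 10 members 9 were tested, with CCND1, CDKN2A and CDKN2D higher and CDKN1C, CDKN1B, CDKN2C and CDKN2B lower. Over all tested genes 18.2% were called in each direction. CCND1, the cyclin that partners CDK4 and CDK6, fell by 1.54 (SE 0.12) in PC9 and by 0.26 (SE 0.08) in PC9M2, a difference of 1.28 (SE 0.12). CDKN1B, the inhibitor p27, rose by 0.87 (SE 0.15) in PC9, and its effect of 0.10 (SE 0.08) in PC9M2 did not pass. CDKN1C, the inhibitor p57, rose by 2.64 in PC9 and by 1.70 in PC9M2, a difference of -0.94 (SE 0.14).

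**Figure D4:**
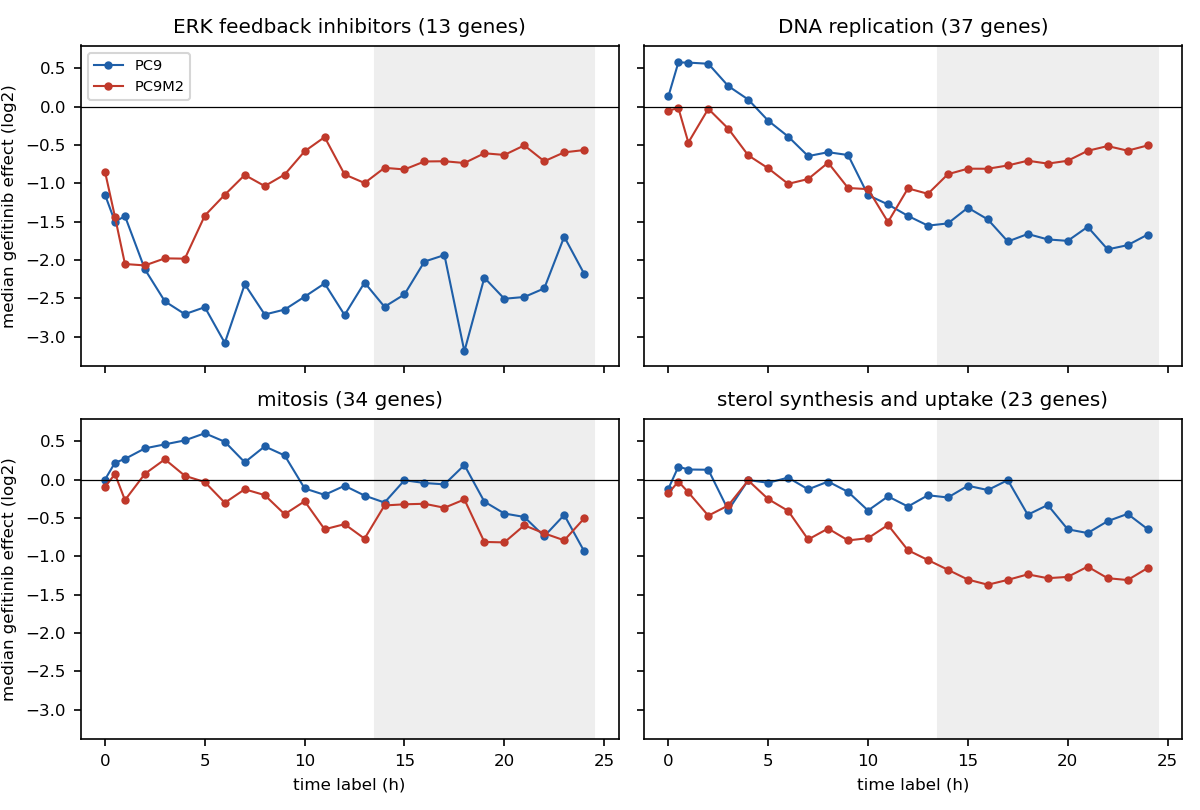
Median gefitinib effect (log2) of 4 gene lists at each of the 26 time labels from 0 to 24 h in PC9 and PC9M2, with a grey band over the late hours. The ERK feedback list lies between -3.19 and -1.70 at the late hours in PC9 and between -0.82 and -0.51 in PC9M2, the replication list is less negative in PC9M2 from 12 h on, and the sterol list is lower in PC9M2 at every late hour.

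Genes of sterol synthesis and uptake ran the other way and fell further in PC9M2. Of 24 members 23 were tested, 0 had a higher difference of effects, 19 a lower one (18.2% of all tested genes did) and 4 did not pass (PMVK, FDFT1, SQLE and HSD17B7), with a median of -0.74. All 23 fell in PC9M2 (40.2% of all tested genes did), with a median effect of -1.25. In PC9 12 fell (35.7% of all tested genes did) and TM7SF2 rose, with a median of -0.45. Without the hours from 16 to 18 h 20 members were lower, and with time points 2 h apart 6 were.

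EBP, the sterol isomerase, ranged from 14.96 to 15.42 without treatment and from 14.88 to 15.54 with gefitinib in PC9 (1 untreated array saturated), and from 14.59 to 15.22 and from 13.36 to 13.96 in PC9M2. The PC9 arms overlapped and the PC9M2 arms did not, and the difference of effects was -1.11 (SE 0.10, limma adjusted p = 2.33e-06). MSMO1, a sterol oxidase, fell by 0.43 (SE 0.07) in PC9 and by 1.52 (SE 0.06) in PC9M2. TM7SF2, a sterol reductase, rose by 1.35 (SE 0.16) in PC9 and fell by 0.46 (SE 0.10) in PC9M2, a difference of -1.82 (SE 0.22). SREBF2, the factor that controls these genes, had a difference of -0.54.

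Fatty acid synthesis genes moved similarly at a smaller size. Of 12 members 11 were tested, ELOVL6 was higher (0.32), 6 were lower (18.2% of all tested genes were) and 4 did not pass, with a median of -0.37. FASN, the fatty acid synthase, had an effect of 0.00 (SE 0.14) in PC9 and fell by 0.84 (SE 0.07) in PC9M2, a difference of -0.84 (SE 0.17). SREBF1, its regulator, had a difference of -0.80 (SE 0.22), and ACSS2 and SCD, which make acetyl-CoA and unsaturated fatty acids, of -0.57 (SE 0.13) and -0.52 (SE 0.11), the latter over 10 time points. With time points 2 h apart 0 members passed.

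Genes that build ribosomes fell less in PC9M2. Of 30 members 28 were tested, 19 had a higher difference of effects (18.2% of all tested genes did), 3 a lower one (PES1, WDR12 and NOB1) and 6 did not pass, with a median of 0.56. The median effect was -1.17 in PC9 and -0.58 in PC9M2. NOP2, an rRNA methyltransferase, had a difference of 1.17 (SE 0.14), and LYAR and UTP20, nucleolar factors of rRNA processing, had differences of 1.33 (SE 0.16) and 1.16 (SE 0.12). PES1, a nucleolar factor of the large subunit, rose by 1.94 (SE 0.26) in PC9 and by 0.60 (SE 0.18) in PC9M2. With time points 2 h apart 8 members were higher and 0 lower.

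Targets of ATF4 and aminoacyl-tRNA synthetases leaned lower in PC9M2. Of 28 members 25 were tested, SLC7A11 was higher (1.20), 11 were lower (18.2% of all tested genes were) and 13 did not pass, with a median of -0.39. AARS1, the alanyl-tRNA synthetase, ranged from 8.80 to 10.38 without treatment and from 11.25 to 13.19 with gefitinib in PC9, and from 9.65 to 10.46 and from 10.23 to 11.08 in PC9M2. The arms were separate in PC9 and overlapped in PC9M2, and the difference of effects was -1.90 (SE 0.26, limma adjusted p = 8.67e-05). ASNS, asparagine synthetase, rose by 0.40 (SE 0.09) in PC9 and fell by 0.37 (SE 0.10) in PC9M2, with a difference of -0.80 over 10 time points, and TRIB3, a pseudokinase of the ATF4 pathway, fell by 1.02 (SE 0.06) in PC9M2 and did not pass in PC9 (-0.15, SE 0.22), with a difference of -0.86 (SE 0.24). SLC7A11, the cystine transporter, was above background on 2 of 11 PC9 gefitinib arrays, and with background correction by normexp its difference was -0.02 and did not pass. With time points 2 h apart AARS1 alone passed.

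**Figure D5:**
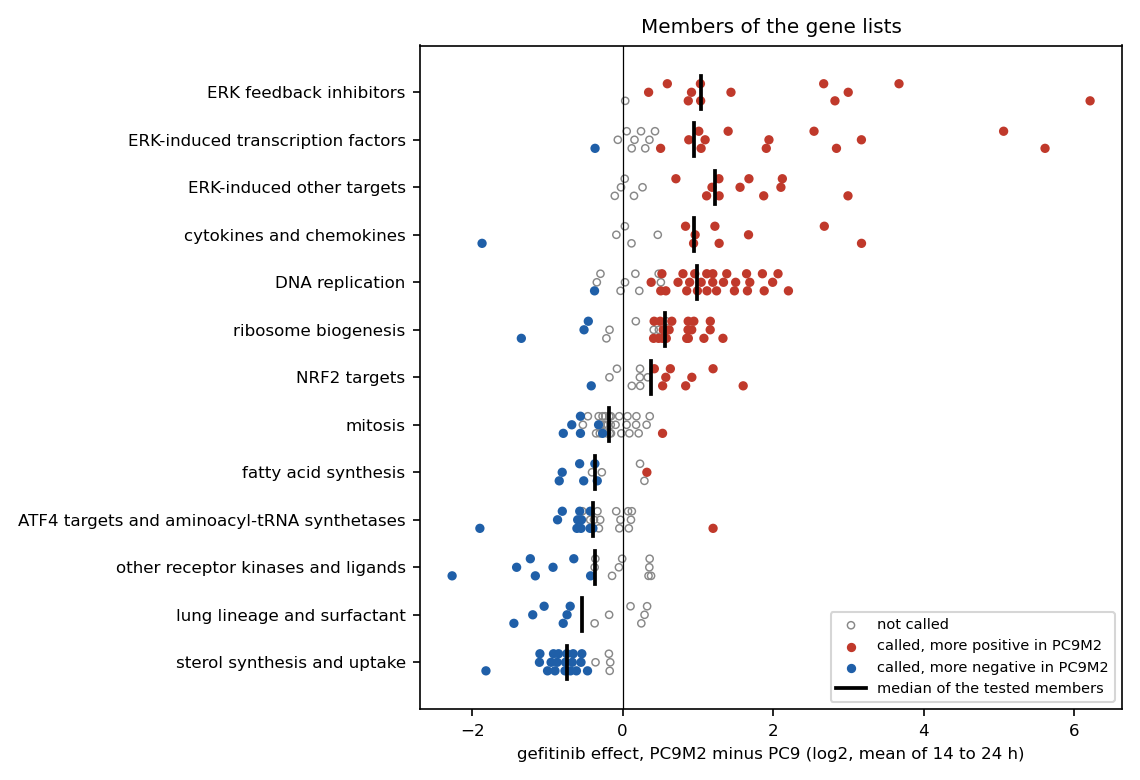
Difference of gefitinib effects (PC9M2 minus PC9, log2, mean of 11 late time points) of each tested member of 13 gene lists, with filled points for genes that passed the test and a bar at the list median. The ERK lists and the replication list lie mostly above 0, the sterol list lies below 0, and the other lists spread to both sides.

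Of the tested cytokines and chemokines 12 fell in PC9, while in PC9M2 9 fell and 1 rose. Over all tested genes 35.7% fell in PC9, and 40.2% fell and 36.3% rose in PC9M2. Of 20 members 13 were tested, 8 had a higher difference of effects (18.2% of all tested genes did), CSF2 a lower one and 4 did not pass, with a median of 0.94. The median was 0.22 after normexp background correction and 0.28 over all 20 members without the filter on dim genes, with 7 higher and 1 lower in each. IL1B, an inflammatory cytokine, ranged from 5.36 to 6.68 without treatment and from 2.58 to 4.77 with gefitinib in PC9, and from 5.59 to 6.40 and from 6.36 to 7.10 in PC9M2. It fell by 1.91 (SE 0.17) in PC9 and rose by 0.77 (SE 0.05) in PC9M2. The fitted difference was 2.68 (SE 0.20), and its size rests on the low gefitinib readings in PC9. Only 3 of the 13 tested members were well above background on all 44 arrays. CXCL8, a neutrophil chemokine, was below background on all gefitinib arrays of both lines, with falls of at least 46.4-fold in PC9 and at least 4.89-fold in PC9M2. CXCL1, of the same family, fell by 4.94 (SE 0.18) and 3.27 (SE 0.13). CSF2, a myeloid growth factor, ranged from 6.38 to 7.61 without treatment in PC9M2, above background on all 11 arrays, and from 2.02 to 3.62 with gefitinib, above background on 1. In PC9 it was above background on 1 of 11 untreated arrays and on 0 with gefitinib, and the size of its difference was not measured.

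The EGFR ligands HBEGF and AREG fell less in PC9M2, and the receptor ERBB2 rose less. Of 13 members 9 were tested, with HBEGF, AREG and LRIG1 higher and ERBB2 and ERBB3 lower. The share called over all tested genes was 18.2% in each direction. HBEGF and AREG, ligands of EGFR, fell by 4.16 (SE 0.17) and 2.80 (SE 0.10) in PC9 and by 2.73 (SE 0.12) and 1.60 (SE 0.06) in PC9M2, differences of 1.43 (SE 0.20) and 1.20 (SE 0.12). ERBB2 rose by 2.70 (SE 0.13) in PC9 and by 1.54 (SE 0.07) in PC9M2, a difference of -1.16 (SE 0.16), and its other probe gave -0.28. EGFR itself had a difference that did not pass.

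Of the tested genes for other receptor kinases and growth factor proteins, 9 rose and 3 fell in PC9, and 9 rose and 5 fell in PC9M2. Over all tested genes 33.3% rose and 35.7% fell in PC9, and 36.3% rose and 40.2% fell in PC9M2. Of 27 members 16 were tested, 0 were higher, 7 were lower (18.2% of all tested genes were) and 9 did not pass, MET and AXL among them. The median was -0.37 (-0.03 over 26 members without the filter on dim genes). FGFR1 and FGFR3, receptors for fibroblast growth factors, rose by 4.51 (SE 0.23) and 4.51 (SE 0.14) in PC9 and by 3.10 (SE 0.27) and 3.35 (SE 0.12) in PC9M2. Their differences were -1.41 (SE 0.26) and -1.16 (SE 0.16). IGFBP5, which binds insulin-like growth factors, rose at least 19.1-fold in PC9 and at least 4.15-fold in PC9M2. GAS6, the ligand of AXL, had a difference of -1.23 (SE 0.28). CSF1R, a kinase receptor also on the leukocyte marker list, rose by 4.78 in PC9 and by 4.37 in PC9M2, a difference of -0.43 over 10 time points.

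Genes of apoptosis and of the AKT and FOXO axis went both ways. Of 22 FOXO targets 4 were higher (BCL2L11, SESN3, RICTOR and GADD45A), 7 lower and 11 did not pass (18.2% of all tested genes were called in each direction), with median effects of 0.85 in PC9 and 1.02 in PC9M2. SESN3 was -0.29 with a floor of 16 in place of 1. BCL2L11, which encodes the death-promoting protein BIM, did not pass in PC9 (-0.23, SE 0.21) and rose by 0.86 (SE 0.16) in PC9M2, a difference of 1.10 (SE 0.33). Its 4 probes gave differences from 0.09 to 1.10, and the call was lost without the hours from 16 to 18 h. In the BCL2 family, 5 of 14 tested genes were higher (BCL2L11, BCL2L1, BCL2, BID and HRK) and 3 lower (BAD, BIK and BCL2L2). BAD, a sensitizer of apoptosis, had a difference of -0.76 (SE 0.12), and BIK of -0.65 (SE 0.12).

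Of 9 death receptor genes tested, TNFRSF10D, TNFRSF10A, FAS and TNFRSF10B were higher (18.2% of all tested genes were) and 0 lower. TNFRSF10A, a receptor for TRAIL, fell by 2.87 (SE 0.12) in PC9 and by 2.02 (SE 0.12) in PC9M2, a difference of 0.84 (SE 0.16). FAS had a difference of 0.62 (SE 0.18). With time points 2 h apart 0 members of the BCL2 and death receptor lists passed, and the call of TNFRSF10D (1.52, SE 0.56) was lost when any one of 10 of the 11 hours was left out.

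Of 21 PI3K and AKT components tested, 5 were higher (INPP4B, IRS1, GSK3B, PHLPP1 and RHEB) and 3 lower, PIK3R2 and GSK3A among them, with a median of 0.11. Of all tested genes 18.2% were called in each direction. GSK3B, the kinase that marks β-catenin for degradation, fell by 1.51 (SE 0.10) in PC9 and by 0.86 (SE 0.06) in PC9M2, a difference of 0.65 (SE 0.08). IRS1, an adaptor of the insulin receptor, had a difference of 0.86 (SE 0.12), and INPP4B, a lipid phosphatase, of 1.01 (SE 0.18).

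The study followed Wnt receptors and β-catenin target genes in these lines. FZD7, a Frizzled receptor for Wnt, ranged from 10.10 to 10.76 without treatment and from 9.31 to 10.14 with gefitinib in PC9, and from 10.16 to 10.89 and from 10.79 to 11.63 in PC9M2. The arms overlapped within each line, and all PC9M2 gefitinib arrays were above all PC9 gefitinib arrays. FZD7 fell by 0.61 (SE 0.11) in PC9 and rose by 0.62 (SE 0.05) in PC9M2, and its difference was 1.22 (SE 0.11, limma adjusted p = 4.63e-06) over 10 time points, since 1 value was removed as an outlier spot. FZD5 had a difference of 0.75 (SE 0.09). FZD9 and LEF1 did not pass, with differences of 0.25 (SE 0.21) and 0.11 (SE 0.11).

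AXIN2, a feedback gene of β-catenin signalling, rose strongly in both lines. It ranged from 5.81 to 7.12 without treatment and from 9.59 to 10.72 with gefitinib in PC9, and from 4.49 to 6.78 and from 9.66 to 10.61 in PC9M2. The gefitinib arms of the lines overlapped. The effects were 3.77 (SE 0.11) and 4.33 (SE 0.16), and the difference was 0.56 (SE 0.19, limma adjusted p = 0.0333), with the same sign in 3 of 4 scan-day blocks and with -0.52 from the other probe. Leaving out any one of 14, 19, 20, 21, 22, 23 or 24 h ended the call, with differences from 0.47 to 0.57.

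Over the whole lists, 5 of 19 tested Wnt receptor and transcription complex genes were higher (FZD7, ROR1, BCL9, FZD4 and FZD5) and TCF7L1 and LRP5 were lower, so that 7 of 19 were called where 36.4% of all tested genes were, with a median of 0.15. Of 11 tested β-catenin targets, ZNRF3, CCND1, MYC and AXIN2 were higher and 0 lower, with a median of 0.21. CCND1 and MYC are also on the ERK lists, and the calls of MYC and BCL9 were lost without the hours from 16 to 18 h (0.60 and 0.80). ZNRF3, a membrane ubiquitin ligase that removes Frizzled, fell by 2.50 (SE 0.17) in PC9 and by 0.89 (SE 0.05) in PC9M2. TCF7L1, a TCF factor, rose by 3.94 (SE 0.25) and 2.09 (SE 0.24), a difference of -1.85 (SE 0.24).

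Of the tested lung lineage genes 9 rose and 1 fell in PC9, and 7 rose and 4 fell in PC9M2. Over all tested genes 33.3% rose and 35.7% fell in PC9, and 36.3% rose and 40.2% fell in PC9M2. Of 21 members 12 were tested, 0 had a higher difference of effects, 6 a lower one (18.2% of all tested genes did) and 6 did not pass, with a median of -0.53. After normexp background correction 2 were higher and 6 lower, with a median of -0.36, and with time points 2 h apart the median was -0.29. SFTPD, surfactant protein D, rose by 2.59 (SE 0.12) in PC9 and by 1.15 (SE 0.10) in PC9M2, a difference of -1.45 (SE 0.18). SCGB1A1, the club cell secretoglobin, and MUC1, an epithelial mucin, had differences of -1.19 (SE 0.12) and -1.04 (SE 0.12). NKX2-1, the lung lineage factor, was above background on 0 untreated PC9M2 arrays, so its response was not measured there.

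Factors and markers of epithelial to mesenchymal transition and keratins gave mixed results. For comparison, 18.2% of all tested genes were called in each direction. Of 14 tested transition genes EPCAM and FN1 were higher and SNAI1, SNAI2, TGFBI, CDH3 and ESRP1 lower, with a median of -0.10. SNAI1, the factor Snail, rose by 2.48 (SE 0.08) in PC9 and by 1.14 (SE 0.07) in PC9M2, a difference of -1.34 (SE 0.12), and 8 PC9 gefitinib arrays were saturated for TGFBI. CDH1, which encodes E-cadherin, and VIM, which encodes vimentin, did not pass. Of 16 keratins KRT6B, KRT6A, KRT7 and KRT23 were higher and KRT14, KRT15 and KRT13 lower, but KRT14 was 0.22 with its other probe and KRT15, with 1 saturated PC9 gefitinib array and 10 time points, was 0.03 after scaling to the 75th percentile. KRT6B, a keratin of activated epithelia, fell by 3.28 (SE 0.14) and 1.92 (SE 0.11), a difference of 1.36 (SE 0.16).

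Among the oxidative stress genes controlled by NRF2, 8 of 16 tested were higher, HMOX1 lower and 7 did not pass, with a median of 0.38 (0.21 after normexp background correction). AKR1B10, an aldo-keto reductase, fell by 1.36 (SE 0.11) in PC9 and rose by 0.28 (SE 0.08) in PC9M2, a difference of 1.60 (SE 0.12) over 10 time points, with 1 saturated untreated PC9 array. GCLC, which begins glutathione synthesis, did not pass in PC9 (-0.13, SE 0.12) and rose by 0.79 (SE 0.06) in PC9M2. Of 14 YAP and TEAD targets, CCN2, TGFB2, FSTL1 and NT5E were higher and IGFBP3, F3 and CRIM1 lower, with differences of 1.60 (SE 0.20) for CCN2 and -0.80 (SE 0.12) for F3, tissue factor. In each direction 18.2% of all tested genes were called.

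The same contrast with 100 ng/ml EGF in all 4 arms came from other arrays on the same slides, which the late contrast did not use. It was called for 6569 genes (51.1%), 3179 higher (24.7%) and 3390 lower (26.4%), and for 1332 (10.4%) it was at least 2-fold. Of the 4674 genes called without EGF, 3875 were also called with EGF, 3869 of them in the same direction, and these 3875 were part of the 6569 called there. Across genes the differences without and with EGF had a Pearson r of 0.865 and a Spearman rho of 0.809. With EGF, DUSP6 had a difference of 5.76, ETV5 of 5.09, EGR1 of 4.70 and RADIL of -5.64.

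The feedback and sterol genes had the same direction with EGF, and the cell cycle genes were lower than without it. All 13 feedback inhibitors were higher with EGF (median 1.24), and 20 of 23 sterol genes were lower (median -0.86). Over all tested genes 24.7% were higher and 26.4% lower with EGF. Of the 37 replication genes 21 were higher and 6 lower with EGF, with a median of 0.48, and GINS2 did not pass there (0.48, SE 0.78). Of the 34 mitosis genes 28 were lower with EGF and 0 higher, with a median of -0.68. The difference between the contrasts without and with EGF was not tested.

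The late difference was also set against the mean difference of the 15 time labels from 0 to 13 h. This comparison shares the late arrays with the late contrast, so its calls are not independent of it. The change from early to late passed for 1808 genes (14.1%), 935 higher (7.28%) and 873 lower (6.79%), 641 genes (4.99%) at least 2-fold, and the absolute difference of the median gene was 0.182 early and 0.32 late. Among the replication genes 30 of 37 moved higher from early to late and 0 lower, and their median difference was -0.35 early and 0.99 late. Among the feedback inhibitors DUSP6 and DUSP4 moved higher, with a list median of 0.82 early and 1.04 late. At the late hours the median effect of the feedback list was between -0.82 and -0.51 in PC9M2 and between -3.19 and -1.70 in PC9.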

How the data were processed

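RNA was measured on 1-colour Agilent whole human genome arrays with 43376 non-control spots of 41000 probes. The deposited values used here are Cy3 intensities that the authors' scanner software (Feature Extraction 10.5.1.1, per the file headers) had background-subtracted and spatially detrended, not normalized between arrays. The authors also deposited a table of quantile normalized intensities, used as an alternative. Precision was limited by 1 array per time point, and depth does not apply to arrays.

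Intensities were quantile normalized over all 208 arrays, floored at 1 and taken to log2. Spots with an outlier flag were removed (0.1263% of tested values), which left 628 genes with fewer than 11 differences. Of 41000 probes 24794 matched 1 symbol in the RefSeq table (GRCh38.p14), giving 16961 genes, each represented by its probe of largest variance. A gene was tested (12850, with 4111 too dim) where 6 or more of the 11 late arrays of some arm read that probe well above background.

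Gefitinib and untreated arrays, and then the lines, were paired by time point as in the study's methods, and each mean of 11 values was tested against 0 by limma 3.58.1 in R 4.3.3 (lmFit and eBayes, two-sided, Benjamini-Hochberg threshold 0.05), a test first tried on simulated data. The late minus early fit compared 11 with 15 time points. The lag-1 autocorrelation of the late differences was 0.1014 at the median gene. A bound ("at least N-fold") sets the brighter arm against the higher of the dim probe and the lowest signal well above background on each array. That lowest signal is taken over all probes. A given probe may need a higher one, so the true limit may be a smaller fold.

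Named genes were the 6 most positive and 6 most negative called genes with the same sign at all 11 hours, the same among genes above background on all 44 arrays, the 4 with the largest opposite effects, up to 4 called members of each of 27 gene lists and 4 marker lists, and FZD5, FZD7, FZD9, LEF1 and AXIN2. Other names were added after their values were seen. Some list members are not reported here by name. The members of the contrast and the lists were chosen with earlier results of these data known, and the lists come from textbook knowledge. Promoters were searched 250 bases upstream of RefSeq starts.

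Alternatives were scaling to the 75th percentile, normexp (offset 50) on the median signals, since no mean signal was used here, a floor of 16, other probe choices, other filters, the methods' t-test, a 2-fold limit, variance inflated for autocorrelation, time points 2 h apart, each hour left out, no pairing of time points, and scan day as a random block. Leaving out 16 to 18 h was chosen after seeing the data.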

Additional observations from a re-analysis of the deposited data

Results flagged for a closer look

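The lines differed in their late gefitinib effect for 4674 genes by the limma test of the difference itself, and that difference was larger or smaller late than early for 1808 genes by the limma test of 11 late against 15 earlier time points. The values below are the late mean difference of effects minus the early mean, on the log2 scale, and share the late arrays with the late contrast.

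Among the named genes with positive late differences, the change from early to late was 3.65 for SLC6A2, 3.34 for ETV5, 2.93 for STEAP1, 2.87 for HP, 2.74 for DUSP6, 2.24 for ACOX2, 2.04 for WFDC5, 2.01 for DOK7, 1.92 for SHC3, 1.91 for ITGA6, 1.81 for ETV4, 1.61 for ESPNL and 1.34 for PRKCQ. EGR1 was the gene among the 6 most positive whose change from early to late did not pass.

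Among those with negative late differences, the change was -4.28 for NKAIN4, -3.33 for CYP17A1, -3.18 for RADIL, -2.34 for PRODH, -1.96 for TRIM29, -1.94 for TRIM63, -1.64 for CRYAB, -1.52 for LOXL4, -1.50 for TEX19, -1.42 for SPP1 and -1.19 for HTRA3. GPER1 was the gene of this group whose change did not pass. Of the Wnt genes that the study followed, FZD7 changed by 0.64 and AXIN2 by 0.73 from early to late, and FZD5, FZD9 and LEF1 did not pass.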

How the results depend on the processing

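The late difference of gefitinib effects was called for 4674 genes and for 3812 to 5212 under the other scalings, background correction, floor, probe choices, filters, saturation limit and adjusted t-test of the methods, with 3596 to 4658 genes shared with the 4674. A 2-fold limit left 1274 genes for this contrast, 4174 for PC9, 2265 for PC9M2, 1332 with EGF and 641 for late minus early. Time points 2 h apart, with fewer points, left 1441, and 3870 with EGF and 374 for late minus early. For late minus early the methods' t-test without adjustment gave 3540 and inflated variance 1203. Leaving out 1 hour gave 4057 to 5598 calls (5598 without 18 h), 8526 to 9163 in PC9, 9584 to 9900 in PC9M2, 6052 to 7067 with EGF and 1507 to 2401 for late minus early. Without the pairing of time points (no replicate block) the late difference had 5075 calls and the contrast with EGF 6538, and with scan day as a random block 4786 and 5810. Scaling to the 75th percentile gave 4576 calls with 45.7% higher, against 49.9%. All 26 genes named for the largest or opposite differences kept direction and call under every alternative in which they were tested. Most of them were picked as called genes with the same sign at every hour, so leaving out hours could not turn their direction. Signs turned for KRT15 (0.0275, 75th percentile), SLC2A3 (0.0413, normexp), SLC7A11 (-0.0224, normexp), SESN3 (-0.29, floor 16) and KRT14 (0.22, brightest probe), and the causes were not tested. Leaving out a single hour ended some calls of named genes, for BCL2L1 at 1 hour (0.81), BCL9 at 1 (0.81), TNFRSF10B at 2 (0.27), FN1 at 3 (1.13 to 1.20), LRIG1 at 5 (0.55 to 0.63), CSF1R at 6 (-0.42 to -0.34), IFI44L at 6 (1.12 to 1.32), AXIN2 at 7 (0.47 to 0.57), SQSTM1 at 9 (0.43 to 0.50) and TNFRSF10D at 10 (1.06 to 1.64). Dim arms limit the size of the largest changes, as only bounds can be given there, and saturation was seen on PC9 arrays only.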

Other observations

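Of the glycolysis genes and targets of hypoxia-inducible factor, 19 fell in PC9 and 23 in PC9M2 (35.7% and 40.2% of all tested genes did). The difference of effects went both ways. Among all tested genes 18.2% were called in each direction. Of 27 members 26 were tested, PFKP, PDK1, PKM and ENO2 were higher in the difference of effects, 7 were lower and 15 did not pass, with a median of 0.04 and median effects of -1.12 in PC9 and -1.25 in PC9M2. ALDOC, an aldolase, ranged from 9.93 to 11.20 without treatment and from 9.96 to 10.42 with gefitinib in PC9, and from 11.19 to 11.95 and from 9.38 to 9.90 in PC9M2. The arms overlapped in PC9 and were separate in PC9M2, and the difference was -1.63 (SE 0.17). PFKFB4, a regulator of glycolytic flux, did not pass in PC9 (-0.07, SE 0.24) and fell by 1.25 (SE 0.05) in PC9M2. BNIP3, a mitophagy receptor induced by hypoxia, fell by 1.29 (SE 0.07) in PC9 and by 2.21 (SE 0.09) in PC9M2. SLC2A3, a glucose transporter, had a difference of -1.02 (SE 0.22), which was 0.04 after normexp background correction.

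Interferon-stimulated genes split by member, where 18.2% of all tested genes were called in each direction. Of 30 members 23 were tested, 8 were higher, 5 were lower (IFITM1, IFI6, IFIT1, IRF9 and IFIH1) and 10 did not pass, with a median of 0.07. IFITM1, a membrane protein that restricts viruses, ranged from 7.82 to 9.95 with gefitinib in PC9 and from 6.08 to 7.08 in PC9M2, without overlap between the lines, and in each line 1 of 11 untreated arrays was above background, so that the sizes of both rises rest on dim arrays. IFI6 rose by 2.52 (SE 0.16) and 1.06 (SE 0.09), a difference of -1.46 (SE 0.19). OASL fell by 1.28 (SE 0.16) in PC9, and its effect of -0.08 (SE 0.11) in PC9M2 did not pass. Of 25 tested lysosome and autophagy genes CTSS, CTSZ, SQSTM1 and TFE3 were higher, ULK1 and CTSL were lower and 19 did not pass. ULK1, the kinase that starts autophagy, rose by 2.26 (SE 0.09) in PC9 and by 1.30 (SE 0.07) in PC9M2, and its other probe gave a difference of -0.07.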
